A study of Capra hircus with 9 samples.

Results

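miR-191 and miR-425 are microRNAs made from neighbouring hairpins, and 8 of the 2189 entries in the deposited table of mature microRNAs carried those names. They were chosen by name: every entry numbered as miR-191 or miR-425 was taken, whatever its arm or ending. chi-miR-191-5p was picked out by its abundance in these libraries, so its rank is given below as a description. Small RNA was sequenced from the submandibular salivary gland of 9 healthy female Lubo goats, each giving its own library, with 3 goats of each age: 1 month, 12 months and 24 months. No treatment is named in the labels, and all goats had common rearing conditions with daylight and unrestricted feed. A library is named here by its age and its number in the labels: 1-month 1, 2 and 3, 12-month 3, 4 and 5, and 24-month 2, 3 and 5. Libraries held 8288492 to 13277448 counts.

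MicroRNAs are cut from a hairpin whose arms can each leave a mature strand, called 5p and 3p, and a strand pairs with target messenger RNAs mainly through its seed, bases 2 to 8. In human, miR-191 and miR-425 lie within the gene DALRD3 and can come from a shared transcript. In the RefSeq table of the goat assembly ARS1.2, MIR425 lay inside the bounds of DALRD3 and MIR191 lay between NDUFAF3 and DALRD3, so the hairpins are neighbours in goat as well. miR-191-5p is present in many tissues and in blood cells, is studied in mouse red cell maturation, and is often used as a reference in RT-qPCR. miR-425-5p has been shown in human cells to act on the natriuretic peptide gene NPPA.

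The sequences, read from the deposited table in DNA letters, show which entries are forms of the same strand and which can share targets. Capitals mark the seed.
chi-miR-191-5p: cAACGGAAtcccaaaagcagct
miR-191-x: cAACGGAAtcccaaaagcagctga
chi-miR-191-3p: cTGCGCTTggatttcgttccc
miR-191-y: cTGCGCTTggatttcgttccctt
chi-miR-425-5p: aATGACACgatcactcccgttga
miR-425-x: aTGACACGatcactcccgttgaga
chi-miR-425-3p: cATCGGGAatgtcgtgtccgcc
miR-425-y: aTCGGGAAtgtcgtgtccgccct
The entries ending in -x repeated the 5p strands and those ending in -y the 3p strands, so the 8 entries stand for 4 strands. miR-191-x and miR-191-y held the whole goat-named sequence and ran on by 2 bases, with the seed unchanged. miR-425-x and miR-425-y started 1 base later and also ran on by 2 bases, so their seeds were shifted. No seed was shared between miR-191 and miR-425 or between the arms of either. No other entry in the table had the same full sequence as any of the 8.

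chi-miR-191-5p carried nearly all of the signal. It took 98.0% to 98.7% of the counts of the 8 entries in every library. By mean unscaled CPM (counts scaled to a library total of 1000000) it was entry number 8 of 2189, at 28707 ± 22736 CPM (SD, n = 9 libraries). The entries next above it were chi-miR-125b-5p at 34194 ± 6192 CPM and chi-let-7a-5p at 37463 ± 14626 CPM, and next below came chi-miR-200a at 25366 ± 11999 CPM and miR-181-x at 24843 ± 41718 CPM. None of these neighbours differed from it by more than these spreads. Its rank was 4 to 8 in the 1-month libraries, 9 to 16 in the 12-month and 14 to 21 in the 24-month ones. chi-miR-425-5p, by comparison, ranked 133 to 200 in the 1-month libraries, 238 to 250 in the 12-month and 225 to 262 in the 24-month ones.

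Below chi-miR-191-5p the unscaled CPM over the 9 libraries averaged 281 ± 240 for miR-191-x, 133 ± 112 for chi-miR-425-5p, 44.7 ± 35.6 for chi-miR-191-3p, 15.6 ± 12.6 for chi-miR-425-3p, 3.04 ± 3.08 for miR-425-x, 1.19 ± 1.54 for miR-191-y and 0.846 ± 0.908 for miR-425-y. Except for chi-miR-191-5p, neighbours in this order did not differ by more than their spread over the libraries. The order of the 6 most abundant entries was nevertheless the same inside each of the 9 libraries, and only miR-191-y and miR-425-y changed places. Counts of different sequences also depend on how well each is captured in library preparation, which was not tested.

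The young glands differed most among themselves. chi-miR-191-5p stood at 30086, 89222 and 30701 TMM-scaled CPM (counts over the library total scaled by edgeR's TMM factor) in 1-month 1, 2 and 3. It stood at 23248, 16705 and 17716 in 12-month 3, 4 and 5, and at 18915, 12581 and 17072 in 24-month 2, 3 and 5. The 3 goats at 1 month were above all 6 older goats, and 1-month 2 was 2.94 times the mean of 1-month 1 and 3. The same library was also the highest for every other entry, at 2.53 times (chi-miR-425-3p) to 4.19 times (miR-191-y) that mean.

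**Figure D1:**
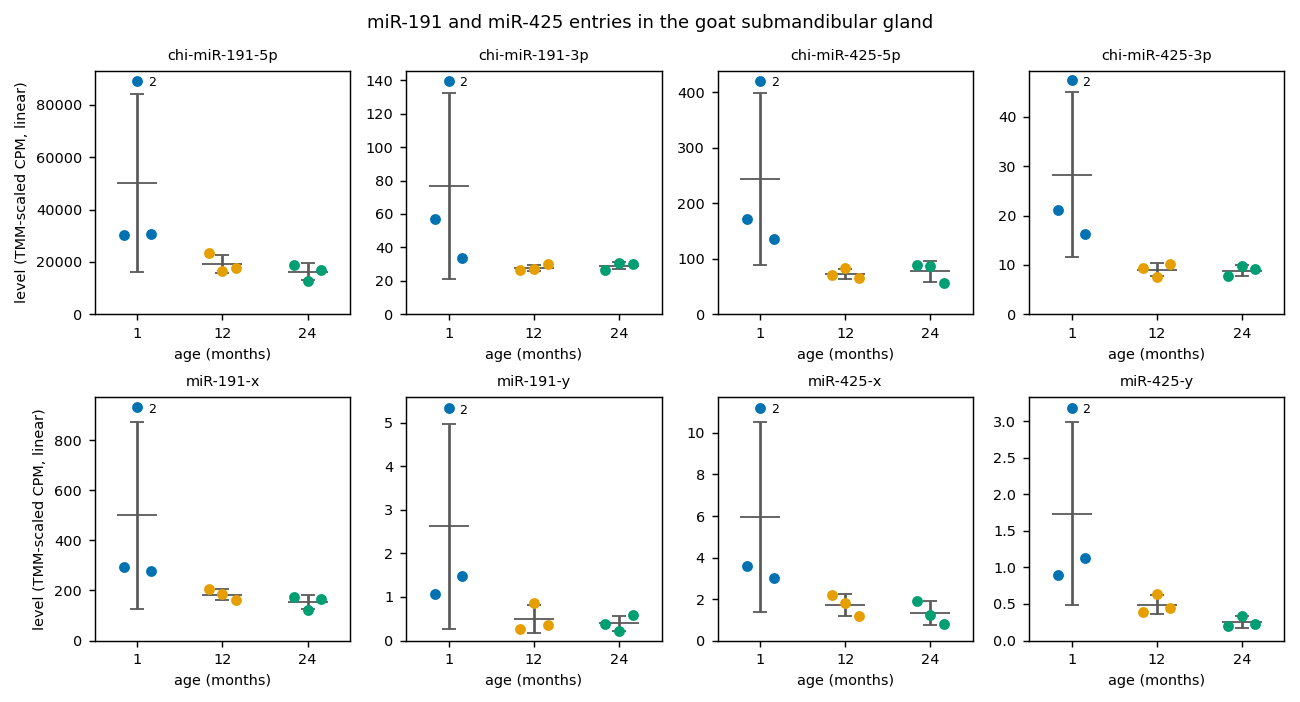
Level of each of the 8 entries (vertical axis, TMM-scaled CPM on a linear scale) by age in months (horizontal axis). Each point is 1 goat, the bar is the mean ± SD of 3 goats, and the point marked 2 is 1-month library 2, the highest in every panel. chi-miR-191-5p runs from 12581 to 89222 CPM.

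1-month library 2 stood apart in its marker miRNAs as well. The leukocyte list (miR-142, miR-150, miR-155, miR-223, miR-146 and miR-342) took 12.7% of its counts, against 3.73% and 5.78% in 1-month 1 and 3. The epithelial list (miR-200, miR-141, miR-429, miR-203, miR-205, miR-183, miR-96 and miR-182) took 0.875% there, against 5.82% and 3.97% in the other 1-month libraries. The gland list (miR-148, miR-375, miR-7, miR-216 and miR-217) took 1.41% there, against 8.55% and 6.50% in them. The mesenchymal list (miR-143, miR-145, miR-199 and miR-214) was also low there, at 1.66% against 10.7% and 13.6%. The neural list, named below, was high there, at 3.48% against 0.723% and 0.419%. Results are therefore given with and without this library.

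At 12 months against 1 month the fitted value of all 8 entries was negative, and both goat-named strands of miR-425 passed the test while those of miR-191 did not. Both later ages are set against the same 3 young goats, so these comparisons share them. Adjusted p-values are from edgeR's quasi-likelihood test over all 937 tested entries. chi-miR-191-5p averaged 19223 ± 3522 CPM at 12 months and 50003 ± 33966 CPM at 1 month (SD, n = 3 each), a log2 fold change of −1.38 (SE 0.45, adjusted p = 0.0539, lower in 3 of 3 goats). Without 1-month 2 the value was −0.69 (SE 0.23, adjusted p = 0.0590). It passed without 1-month 1 (adjusted p = 0.0327) or 1-month 3 (0.0355), and without 24-month 2, 3 or 5 (0.0323, 0.0330 and 0.0342), where the median over all tested entries was −0.40. It also passed with DESeq2 (−1.51, adjusted p = 0.0161), but not with limma voom (0.0634) or only the 2 ages compared (0.0615). Nor did it pass without 12-month 3, 4 or 5 (0.0578, 0.143 and 0.0735). The difference between miR-191 and miR-425 is tested below by their ratio.

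chi-miR-191-5p fell at 24 months against 1 month. It averaged 16190 ± 3258 CPM at 24 months against 50003 ± 33966 CPM at 1 month, a log2 fold change of −1.63 (SE 0.45, adjusted p = 0.0260, lower in 3 of 3 goats), or 3.09-fold lower. Without 1-month 2 the value was −0.93 (SE 0.23, adjusted p = 0.0171). The call was lost without 24-month 3 (adjusted p = 0.0885) or 24-month 5 (0.0533). The other arm, chi-miR-191-3p, stood at 57.1, 140 and 33.5 CPM in 1-month 1, 2 and 3, at 26.3, 27.3 and 29.8 CPM in 12-month 3, 4 and 5, and at 26.6, 30.5 and 30.3 CPM in 24-month 2, 3 and 5. The older goats lay close together below every young goat. chi-miR-191-3p did not pass at 24 months against 1 month (−1.40, adjusted p = 0.0529) or at 12 months against 1 month (−1.47, adjusted p = 0.0571), and stood at −0.66 and −0.72 without 1-month 2. Without 1-month 3 it passed in both (adjusted p = 0.0187 and 0.0177). At 12 months against 1 month it also passed on leaving out any single 24-month library (0.0323 to 0.0407). The median over all tested entries was −0.40 in those fits. With only the 2 ages compared chi-miR-191-3p did not pass at 12 months against 1 month (0.0630).

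chi-miR-425-5p fell at both later ages. It stood at 172, 421 and 136 CPM in 1-month 1, 2 and 3, at 70.8, 83.3 and 64.6 CPM in 12-month 3, 4 and 5, and at 89.1, 87.5 and 55.6 CPM in 24-month 2, 3 and 5. Every older goat was below every young goat, with or without 1-month 2. The log2 fold change was −1.74 at 12 months against 1 month (SE 0.46, adjusted p = 0.0256, lower in 3 of 3 goats) and −1.65 at 24 months against 1 month (SE 0.46, adjusted p = 0.0263, lower in 3 of 3 goats). Without 1-month 2 the values were −1.11 (SE 0.28, adjusted p = 0.0217) and −1.02 (SE 0.28, adjusted p = 0.0266). The first call was lost without 12-month 4 (adjusted p = 0.0703), and the second without 24-month 3 (0.0587) or 24-month 5 (0.0588).

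The 3p arm of miR-425 fell by a like amount. chi-miR-425-3p stood at 21.2, 47.4 and 16.3 CPM in 1-month 1, 2 and 3, at 9.40, 7.57 and 10.1 CPM in 12-month 3, 4 and 5, and at 7.71, 9.78 and 9.09 CPM in 24-month 2, 3 and 5. The ages did not overlap between 1 month and either later age. The log2 fold change was −1.65 at 12 months (SE 0.46, adjusted p = 0.0297) and −1.67 at 24 months (SE 0.46, adjusted p = 0.0243), each against 1 month. Without 1-month 2 it was −1.07 (adjusted p = 0.0294) and −1.10 (adjusted p = 0.0236). The call at 12 months was lost without 12-month 4 (adjusted p = 0.109), and that at 24 months without 24-month 2 (0.0545), 3 (0.0596) or 5 (0.0501).

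The remaining entries are other forms of these strands and are no separate evidence. miR-191-x held 0.877% to 1.10% of the 5p counts of miR-191 in each library, and miR-425-x 1.41% to 3.00% of those of miR-425. miR-191-y and miR-425-y held 0.741% to 4.24% and 2.44% to 7.79% of their 3p counts, on 2 to 67 counts in a library. At 24 months against 1 month the log2 fold change was −1.71 for miR-191-x (adjusted p = 0.0275) and −2.15 for miR-425-x (adjusted p = 0.0348). miR-191-x lost its call without 24-month 3 (adjusted p = 0.0824), and miR-425-x lost it without 1-month 2 (0.0846), 12-month 4 (0.0501), 24-month 3 (0.104) or 24-month 5 (0.0899). At 12 months against 1 month miR-191-x (−1.45, adjusted p = 0.0566) and miR-425-x (−1.79, adjusted p = 0.0643) did not pass. miR-191-x passed there without 1-month 1 (0.0358), 1-month 3 (0.0322) or any single 24-month library (0.0293 to 0.0332). With only the 2 ages compared miR-191-x did not pass (0.0568). miR-425-x passed there without 1-month 3 (0.0498), 24-month 2 (0.0402) or 24-month 5 (0.0465). In the fits without a 24-month library the median over all tested entries was −0.40 at 12 months against 1 month.

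All 8 entries passed the filter on low counts, 2 of them only through the 1-month libraries. miR-191-y and miR-425-y reached the filter's level of 0.967 CPM in 3 libraries each, all at 1 month, so entries kept this way had to differ, and their calls are no support. Their values at 24 months against 1 month were −2.69 (adjusted p = 0.0400) and −2.72 (adjusted p = 0.0320), and −1.68 (0.164) and −1.98 (0.113) without 1-month 2. Neither passed when any one 24-month library was left out (0.0678 to 0.123), and miR-425-y did not pass without 12-month 4 (0.0510).

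Counted over the table, edgeR called 2 of the 8 entries lower at 12 months against 1 month, both of miR-425, where 13.2% of the 937 tested entries were called lower and 5.98% higher. At 24 months against 1 month it called 7 of the 8 lower, where 17.5% of all were called lower and 8.75% higher, and 0 of the 8 were called higher in either comparison. Over all entries the split of higher and lower calls was 56 and 124 at 12 months, but 26 and 155 by library size alone. At 24 months it was 82 and 164, but 46 and 193 by library size alone and 132 and 153 by the upper quartile. Neither scaling changed the sign of any of the 8 in these comparisons. All 8 lay below the 1-month range without overlap at 12 months, as 22.2% of all tested entries did, and all 8 at 24 months, as 25.8% did. A difference between any of the 3 ages was called for 6 of the 8, with chi-miR-191-3p (adjusted p = 0.0651) and miR-425-y (0.0544) outside, against 20.5% of all. These counts hold 2 forms of each strand and the 2 entries that the filter kept only through 1 month, so the 4 strands rather than the 8 entries are the units to read.

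**Figure D2:**
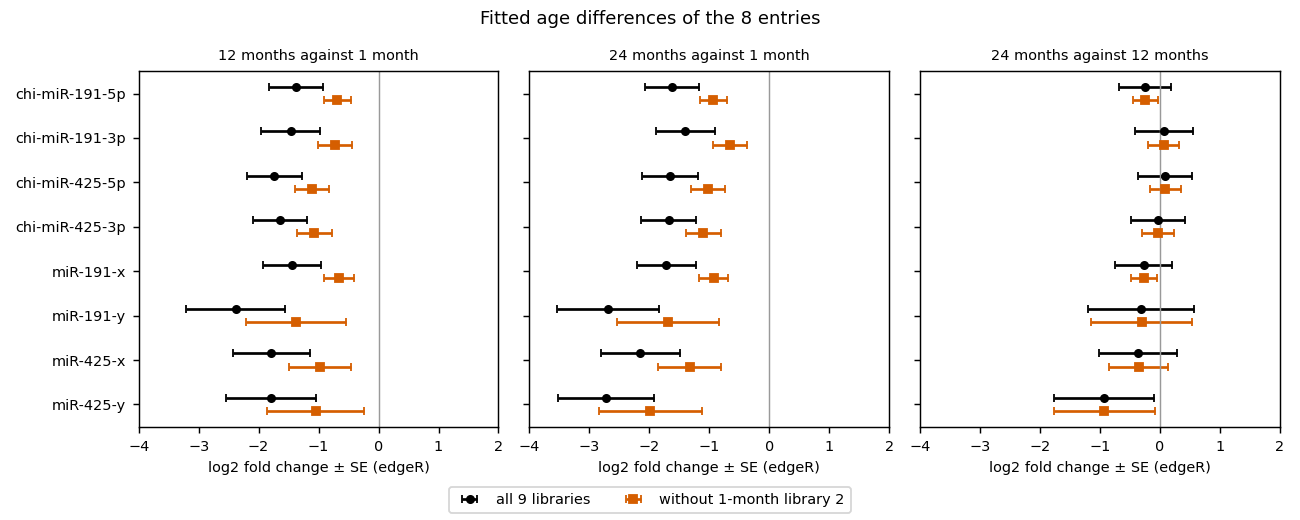
Fitted log2 fold change of each entry (horizontal axis, ± SE from edgeR) in 3 age comparisons, with all 9 libraries (black circles) and without 1-month library 2 (orange squares). Both comparisons with 1 month lie below 0 for every entry and nearer to 0 without that library, where chi-miR-191-5p at 24 months stands at −0.93 in place of −1.63.

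At 24 months against 12 months 0 of the 8 entries were called by edgeR, with an adjusted p of 0.998 for each. Of all 937 tested entries 0% were called, with 40 of 937 at an unadjusted p under 0.05 and 0 called by DESeq2 or limma voom. chi-miR-191-5p averaged 16190 ± 3258 CPM at 24 months and 19223 ± 3522 CPM at 12 months (log2 −0.25, SE 0.44). chi-miR-425-5p averaged 77.4 ± 18.9 CPM at 24 months and 72.9 ± 9.50 CPM at 12 months (log2 0.09, SE 0.45). For both, the ages overlapped, and of the 8 only miR-425-y did not overlap, at 0.193 to 0.341 CPM (2 or 3 counts) at 24 months and 0.386 to 0.640 CPM (3 to 6 counts) at 12 months.

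Whether miR-425 and miR-191 moved together was read from the ratio of their 5p counts within each library, which needs no scaling between libraries. For 1 read of chi-miR-425-5p there were 174, 212 and 225 reads of chi-miR-191-5p in 1-month 1, 2 and 3. There were 328, 200.4 and 274 in 12-month 3, 4 and 5, and 212, 144 and 307 in 24-month 2, 3 and 5. The ages overlapped, and 1-month 2 lay between its age mates although it held the highest level of both strands. The log2 ratio of miR-425-5p to miR-191-5p averaged −8.03 ± 0.36 at 12 months and −7.66 ± 0.19 at 1 month (difference −0.37, exact two-sided permutation p = 0.3). At 24 months it averaged −7.72 ± 0.55, a difference of −0.06 from 1 month (exact p = 0.9) and of 0.32 from 12 months (exact p = 0.5). Adjusted over the 12 such tests made here, these p-values were 0.857, 0.982 and 0.857 in that order. The smallest p that 3 against 3 can give is 0.1, so these tests could not have passed 0.05.

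Among the 6 older goats, where both strands were low, their levels showed no common order. Over those 6 libraries Pearson's r of log2 CPM between chi-miR-425-5p and chi-miR-191-5p was −0.28 and Spearman's rho −0.09, and r was 0.42 without the 2 libraries farthest from the median. 24-month 3 had the lowest chi-miR-191-5p (12581 CPM) beside the second highest chi-miR-425-5p among them (87.5 CPM), and 12-month 3 the highest chi-miR-191-5p (23248 CPM) beside 70.8 CPM of chi-miR-425-5p. Between the goat-named 3p and 5p strands r was −0.73 for miR-191 and −0.48 for miR-425. It was 0.91 between miR-191-x and chi-miR-191-5p, and 0.61 between the goat-named 3p strands of the 2 miRNAs. Even arms of 1 hairpin did not agree here, so r in these 6 libraries cannot decide whether the cluster partners move together. Over all 9 libraries r between chi-miR-425-5p and chi-miR-191-5p was 0.906, and 0.677 without 1-month 2. The 1-month libraries lie apart from the rest, so these values mix the gap between ages with the spread within them.

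**Figure D3:**
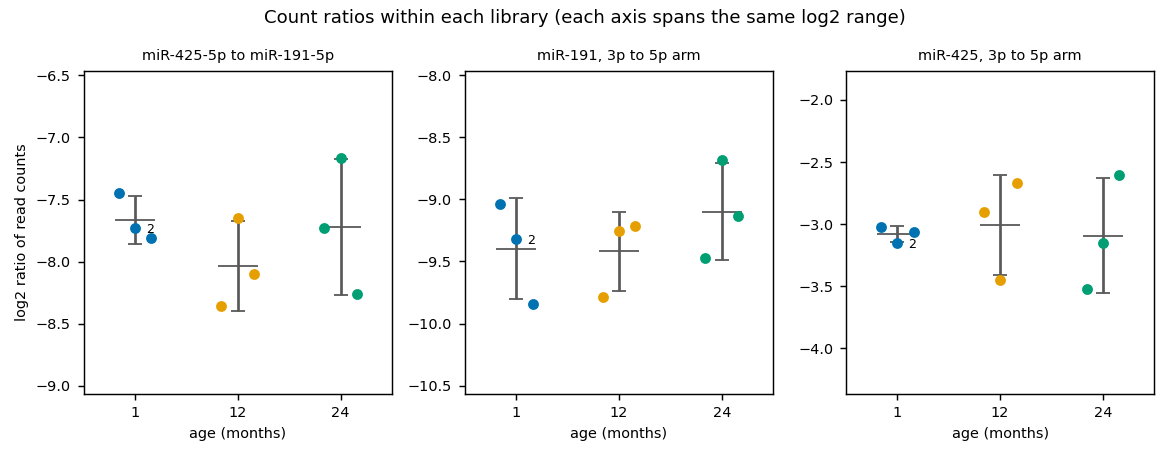
Log2 ratio of read counts within each library (vertical axis) by age in months (horizontal axis), for miR-425-5p over miR-191-5p and for the 3p over the 5p arm of each miRNA. Points are goats, bars are mean ± SD of 3, and the point marked 2 is 1-month library 2. The ages overlap in all 3 panels, and the first panel runs from 144 to 328 reads of miR-191-5p per read of miR-425-5p.

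The arms kept very unequal shares at every age. miR-191 had 412 to 917 reads of its 5p strand for 1 read of its 3p strand, and miR-425 had 6.08 to 11.5. The log2 ratio of 3p to 5p counts of miR-191 averaged −9.40 ± 0.41 in 1-month goats, −9.42 ± 0.32 in 12-month goats and −9.10 ± 0.39 in 24-month goats. That of miR-425 averaged −3.08 ± 0.06, −3.01 ± 0.40 and −3.09 ± 0.46 at 1, 12 and 24 months. No pair of ages was separated in either (exact two-sided permutation p = 0.4 to 1, adjusted p = 0.857 to 1).

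The miRNAs most similar in pattern to either 5p strand were sought outside the miR-191 and miR-425 entries, which were left out of the candidates. The lists of 5 therefore cannot show whether other forms or arms of the same hairpins were more alike. Among 148 other goat-named entries with a mean of at least 100 CPM, the 5 most like chi-miR-191-5p over the 9 libraries were chi-miR-28-3p (Pearson's r = 0.983 in log2 CPM), chi-miR-106b-3p (0.98), chi-miR-92a-3p (0.973), chi-miR-92b (0.971) and chi-miR-16a-5p (0.97). Over the 6 older libraries alone these values were 0.86, 0.847, 0.813, 0.79 and 0.802 in the same order, and without 1-month 2 they were 0.931, 0.943, 0.93, 0.924 and 0.876. Both miR-92 entries have the same sequence in the table, although their mean levels differed (4738 and 4322 CPM). How reads were divided between them was not tested. chi-miR-106b-3p and miR-92 belong to clusters tied to proliferation, and chi-miR-16a-5p to a family known to slow the cell cycle.

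The 5 most like chi-miR-425-5p were chi-miR-296-3p (r = 0.974), chi-miR-15a-5p (0.965), chi-miR-106b-5p (0.963), chi-miR-15b-5p (0.959) and chi-miR-363-3p (0.951). Over the 6 older libraries these were 0.337, 0.072, 0.345, 0.185 and −0.091, far below their values over all 9, and without 1-month 2 they were 0.917, 0.898, 0.881, 0.909 and 0.885. With its cluster partner counted among the candidates, chi-miR-425-5p stood at place 26 of 149 for likeness to chi-miR-191-5p, and chi-miR-191-5p at place 23 for likeness to chi-miR-425-5p. All of these correlations share the same libraries, their depth and their composition, and are given as descriptions.

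The change with age was set beside 13 other miRNAs commonly used as RT-qPCR references (let-7a, miR-16, miR-25, miR-26a, miR-93, miR-103, miR-107, miR-151, miR-186, miR-320, miR-361, miR-423 and miR-484). Of their 37 tested entries, 10 were called lower and 0 higher at 12 months against 1 month, beside 13.2% lower and 5.98% higher among all tested entries. At 24 months against 1 month 10 were lower and 3 higher, beside 17.5% and 8.75%. Their median log2 fold change was −0.40 at 12 months and −0.52 at 24 months against 1 month, where all tested entries had −0.02 and −0.06. Without 1-month 2 the medians were 0.01 and −0.13, with 9 lower and 1 higher at 12 months and 8 lower and 7 higher at 24 months. All 967 entries tested without that library had medians of 0.07 and −0.07. Of these, 134 were called lower and 84 higher at 12 months, and 144 lower and 111 higher at 24 months. Only 4 reference entries were called lower at 12 months without 12-month 4. At 24 months 6 were lower and 0 higher without 24-month 3, and 1 was higher without 24-month 5.

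The 4 most abundant entries of that list did not move alike. chi-miR-26a-5p averaged 114209 ± 26151 CPM at 12 months and 109539 ± 14886 at 24 months, against 110338 ± 19380 CPM at 1 month (log2 0.05 and −0.01, adjusted p = 0.918 and 0.984). chi-let-7a-5p, of a family known to rise with differentiation, rose at 24 months against 1 month (log2 1.22, SE 0.34, adjusted p = 0.0260), at 56634 ± 20100 CPM against 24388 ± 5413 CPM. It did not pass by library size alone (0.92, adjusted p = 0.0796) or without 1-month 3, 12-month 3 or 5, or any 24-month library, down to 0.72 (adjusted p = 0.200) without 24-month 5. Nor did it pass with no filter (adjusted p = 0.185), only the 2 ages compared (0.111) or the replicate number as a block (0.153). chi-miR-151-5p did not pass at either later age (0.83 and 0.74, adjusted p = 0.0916 and 0.117). chi-miR-16a-5p fell at 24 months against 1 month (−1.63, SE 0.55, adjusted p = 0.0487), and stood at −1.54 at 12 months (adjusted p = 0.0631). That call was lost without 1-month 2, where the value was −0.69 (SE 0.30, adjusted p = 0.118). chi-miR-191-5p kept its call there at −0.93 (SE 0.23), but the difference between these 2 values was not tested. Leaving out any of the 6 older libraries also lost the call of chi-miR-16a-5p (0.0528 to 0.149), and at 12 months a call was gained on leaving out 1-month 1, 1-month 3, 24-month 2 or 24-month 3 (0.0357 to 0.0475). Without 24-month 2 or 24-month 3 the median over all tested entries was −0.40 at 12 months.

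As a share of all counts the 8 entries took 3.62%, 8.60% and 3.80% in 1-month 1, 2 and 3, 2.21%, 1.79% and 1.66% in 12-month 3, 4 and 5, and 1.84%, 1.21% and 1.54% in 24-month 2, 3 and 5. The Wilson 95% interval was 8.58% to 8.61% for 1-month 2 and 1.21% to 1.22% for 24-month 3, and covers counting error only. Neither later age overlapped with 1 month (exact two-sided permutation p = 0.1 for each, the smallest possible, adjusted p = 0.6). The share at 12 months averaged 1.89 ± 0.286% and that at 24 months 1.53 ± 0.316%, against 5.34 ± 2.82% at 1 month. Without 1-month 2 the difference from 1 month was −1.82 percentage points at 12 months and −2.18 at 24 months, in place of −3.45 and −3.81 (exact p = 0.1 for each). 24 months differed from 12 months by −0.35 percentage points (exact p = 0.3, adjusted p = 0.857).

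Markers of leukocytes and of epithelium moved with the same ages. Among all tested entries 13.2% were called lower and 5.98% higher at 12 months against 1 month, and 17.5% lower and 8.75% higher at 24 months. Of 16 tested leukocyte entries, 12 were called lower at 12 months and 14 at 24 months against 1 month, and 11 in each without 1-month 2. At 12 months 7 were called without 12-month 4, and at 24 months 9 without 24-month 2 and 7 without 24-month 3. The list's 22 entries in the table took 0.604% to 0.712% of counts at 12 months and 0.477% to 0.617% at 24 months, against 3.73% to 12.7% at 1 month, and 3 of the 22 were at 0 throughout 12 months, 4 throughout 24 months and 0 throughout 1 month. Of 22 tested epithelial entries, 5 were higher at 12 months and 9 at 24 months against 1 month, and 14 and 15 without 1-month 2. The epithelial count moved with many single libraries. At 12 months it was 15 without 1-month 1, 3 without 12-month 3 or 4 and 2 without 12-month 5. At 24 months it was 17 without 1-month 1, 4 without 1-month 3, 12-month 3 or 5 or 24-month 2 or 5, and 3 without 24-month 3. That list of 24 took 10.3% to 11.9% of counts at 12 months and 10.7% to 11.8% at 24 months, against 0.875% to 5.82% at 1 month. The gland list took 14.2% to 16.8% and 16.9% to 17.9% at the later ages, against 1.41% to 8.55% at 1 month. Its 11 tested entries went both ways at 12 months, with 3 called higher, 1 lower and 7 not called (median log2 fold change 0.25), and 4 were called higher and 0 lower at 24 months. On leaving out single libraries 0 to 5 were higher and 0 to 2 lower at 12 months, with 0 higher without 12-month 5, 1 without 12-month 3 or 4 or 24-month 2 or 3, and 5 without 1-month 1 or 2. Red cell entries (miR-144, miR-451 and miR-486) took 0.0735% to 0.360% and 0.101% to 0.116% at the later ages, against 0.201% to 0.403% at 1 month, and 0 and 2 of 7 tested were called lower. Those ranges overlapped at 12 months, and the 2 calls at 24 months became 0 without 1-month 1 or any one 24-month library and 1 without 1-month 3. Neural entries (miR-9, miR-124, miR-128, miR-129, miR-137 and miR-219) took 0.0404% to 0.0564% and 0.0290% to 0.0474% at the later ages, against 0.419% to 3.48% at 1 month, and 3 and 4 of 13 tested were called lower. Of 19 tested mesenchymal entries, 0 were called lower and 1 higher at each later age against 1 month. Without 1-month 2, 5 were lower and 3 higher at 12 months, and 8 lower and 4 higher at 24 months. Of 4 endothelial entries (miR-126), 0 were called at 12 months and 1 higher at 24 months. Of 10 muscle entries (miR-1, miR-133, miR-206, miR-208 and miR-499), 0 were lower and 2 higher at each later age. Such small counts also varied on leaving out single libraries. In a whole gland, fewer cells of a type and less of a miRNA per cell cannot be told apart, and the part of these cell types in the fall of miR-191 and miR-425 was not tested.

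**Figure D4:**
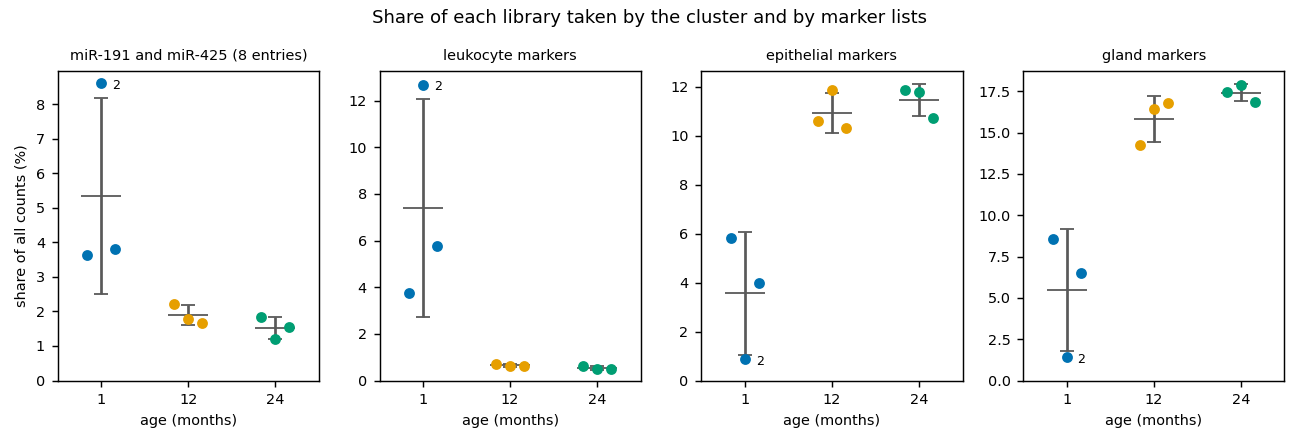
Share of all counts of a library (vertical axis, percent) taken by the 8 miR-191 and miR-425 entries and by the leukocyte, epithelial and gland marker lists, by age in months (horizontal axis). Points are goats, bars are mean ± SD of 3, and the point marked 2 is 1-month library 2, highest for the cluster at 8.60% and for leukocyte markers at 12.7%, and lowest for epithelial markers at 0.875% and gland markers at 1.41%.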

How the data were processed

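The authors deposited raw read counts per mature miRNA entry for 9 libraries in 1 table, per the file headers, with each entry's sequence. Per the labels' protocols, total RNA was extracted with TRIzol before Illumina library preparation. FastQC and Bowtie are named without version or role, per the submitters' processing notes, and the sources used here name no genome build or miRNA release, so no coordinates are printed. Every count column was matched to a sample by its title, and ages come from the labels.

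Counts were filtered (edgeR filterByExpr, minimum count 10, minimum total 15), leaving 937 of 2189 entries, scaled by TMM and tested with edgeR 4.0.16 in R 4.3.3 (robust quasi-likelihood F test, all 9 libraries, Benjamini-Hochberg over 937 entries, threshold 0.05). Each library is a separate goat, so p-values measure the spread between goats. Ratios used a pseudocount of 0.5 count and exact permutation tests (Python 3.11.15), log2 CPM a prior count of 2. The fit was tested on simulated data. Alternatives were other scalings, no filter, DESeq2 1.42.0, limma voom 3.58.1, only the 2 ages compared, a replicate block, and leaving out each library. Every miR-191 or miR-425 entry is reported. The others named are the nearest in abundance, the 5 most correlated with each 5p strand, those sharing a seed, and the 4 most abundant reference miRNAs. The members and lists were chosen with earlier results of these data known.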

Additional observations from a re-analysis of the deposited data

How the results depend on the processing

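All 8 entries kept a negative log2 fold change against 1 month in all 136 of their alternative values at 12 months and all 136 at 24 months, and 0 values that carried a call changed sign. These values share goats and hold 2 forms of each strand, so they are not separate pieces of evidence. miR-191-y and miR-425-y passed the filter only through the 1-month libraries, so their signs are no support. chi-miR-191-5p at 12 months against 1 month passed with library size alone (−1.50), DESeq2 size factors (−1.51) and DESeq2 (−1.51). It also passed with no filter (−1.59), where the median of all entries was −0.49. It did not pass with the upper quartile (−1.21, adjusted p = 0.0726), limma voom (−1.19, 0.0634) or only the 2 ages compared (−1.64, 0.0615). On leaving out single libraries it ran from −1.79 to −0.69. At 24 months that range was −1.87 to −0.93. For chi-miR-425-5p it was −2.03 to −1.11 (12 months) and −1.91 to −1.02 (24 months). The median of all entries at 12 months against 1 month was −0.02, but −0.20 with library size alone, −0.11 with DESeq2 size factors and 0.12 with the upper quartile. At 24 months it was −0.06, but −0.36, −0.10 and 0.07. The ratio of miR-425-5p to miR-191-5p moved by less than the spread between goats in all alternatives. The share was less stable. Without 1-month 2 its differences from 1 month were −1.82 and −2.18 percentage points, in place of −3.45 and −3.81. That move is below the 1-month SD of 2.82, which 1-month 2 itself widens, but above the SDs of 0.286 and 0.316 at 12 and 24 months.

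Of all entries, 180 were called at 12 months against 1 month, 285 with DESeq2, and 83 to 218 on leaving out a library (83 without 12-month 4). At 24 months against 1 month 246 were called, and 116 to 255 on leaving out a library (158, 116 and 161 without 24-month 2, 3 and 5). At 24 months against 12 months 0 were called, 5 with no filter and 0 to 2 on leaving out a library. For any difference, 192 were called, 303 with no filter and 299 with DESeq2.

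Replicate numbers do not pair these goats, since each library is a separate animal and the deviations of same-numbered libraries correlated at −0.198 to 0.15 in 5 pairs. With the number as a replicate block, 4, 71 and 13 entries were called at 12 and 24 months against 1 month and for any difference. chi-miR-191-5p at 24 months stood at −1.63 (adjusted p = 0.0856), and chi-miR-425-5p at −1.34 (0.405) at 12 months and −1.46 (0.183) at 24 months, and 0 of the 8 entries passed in any comparison. Of the leukocyte entries 2 and 6 were then called lower at 12 and 24 months, of the epithelial ones 0 and 9 higher, and of the reference miRNAs 0 and 2 lower.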

Other observations

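Entries of other names shared seeds with the cluster. miR-462-x had the seed of chi-miR-191-5p, differing from it at 5 of 22 positions, and miR-731-x that of chi-miR-425-5p, differing at 7 of 23. miR-462 and miR-731 are names from bony fish, where they form a cluster regarded as related to miR-191 and miR-425. miR-462-x had 226, 864 and 68 counts in 1-month 1, 2 and 3, 149, 634 and 46 in 12-month 3, 4 and 5, and 37, 9 and 15 in 24-month 2, 3 and 5. miR-731-x, with 555 counts over all libraries, had 47, 244 and 14 in those 1-month libraries, 33 and 19 in 12-month 3 and 5 with more in 12-month 4, and 7, 0 and 0 at 24 months. The other arm, miR-731-y, chosen after its values were seen, had 19, 159 and 10, then 15, 119 and 7, then 2, 0 and 2. Scaled to the library total, all 3 were highest in 12-month 4 and next highest in 1-month 2, with miR-462-x at 71.2 and 65.1 CPM, miR-731-x at 21.4 and 18.4 CPM and miR-731-y at 13.4 and 12.0 CPM in that order. In 12-month 4 neither chi-miR-191-5p (16705 CPM) nor chi-miR-425-5p (83.3 CPM) came near its 1-month level. edgeR called all 3 lower at 24 months against 1 month (adjusted p = 0.0329, 0.0379 and 0.0364), but none without 1-month 2 (0.138, 0.138 and 0.152). The fitted log2 fold changes were then −2.46, −3.27 and −2.89, against −3.85, −5.01 and −5.01 with it, and those of both miR-731 entries rest on at most 7 counts in a 24-month library. The call of miR-462-x was also lost without 1-month 1 (0.0520) or 24-month 2, 3 or 5 (0.0545, 0.108 and 0.0890). That of miR-731-x was lost without 1-month 1 (0.0540) or 24-month 3 or 5 (0.111 and 0.0927), and that of miR-731-y without 24-month 2, 3 or 5 (0.0922, 0.114 and 0.0821). The origin of these reads was not tested.

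The shifted seed of miR-425-y was shared with miR-450-y and miR-2403-y. miR-450-y had 39 counts in 1-month 2, its lowest library, against 205 and 225 in 1-month 1 and 3. The same library was the highest for miR-425-y, at 40 counts against 11 and 16. miR-2403-y had 57 counts over all libraries and was not tested.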
